A study of Mus musculus with 5 samples.

Results

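The genes described here encode the proteins of the cytosolic ribosome, in microglia-rich cells sorted from the forebrain of mouse pups at postnatal day 8. They were taken by name: symbols made of Rpl or Rps, a number and at most a short ending, together with Rplp0, Rplp1, Rplp2 and Rpsa, without pseudogene names and without the Rps6k kinases. Of 23420 listed genes, 84 matched. Of these, 4 were listed at exactly 0 in all 5 libraries, Rpl9, Rpl10l and Rpl11 among them, and were left out, which left 80 genes, 48 of the large subunit and 32 of the small one. In all, 58 could be tested.

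Each library held polyA RNA of CD11b-positive, propidium iodide-negative cells, sorted after 2 to 4 male and female pups of the same genotype had been pooled, so the replicates are separate pools. The 3 libraries labelled knockout came from pups with Cx3cr1CreERT2/+ and Stat3fl/fl, in which a tamoxifen-inducible Cre recombinase sits in the Cx3cr1 gene of microglia and related cells and can delete floxed Stat3. The 2 control libraries came from Stat3fl/fl littermates without Cre. Daily tamoxifen was given on postnatal days 1 to 3. The design text names tamoxifen for pups that carry Cre and the sample labels list every library as untreated, so whether the controls received it is not clear from the sources used here. A difference between the groups therefore comes with 1 disrupted copy of Cx3cr1 and with Cre as well as with floxed Stat3. The comparison asks what loss of the transcription factor STAT3 changes in early postnatal microglia.

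The deposited values were read as log2 expression centred per gene, so that libraries can be compared for 1 gene while the levels of different genes cannot. Values over the series ran from -4.12 to 7.69, and the depth of each library is unknown. Values are given below for knockout replicates 1, 2 and 3 and then for control replicates 1 and 2. Stat3 read 0.96, 0.07 and 0.24 with the label knockout against control values of 0.08 and 0.45. It was thus not lower where the label says knockout (log2 difference 0.17, SE 0.43, limma adjusted p = 0.953, Benjamini-Hochberg), and every direction below rests on the labels. Cx3cr1 stood at 3.36, 3.34 and 3.00 against 4.32 and 3.95 (log2 difference -0.90, SE 0.39, limma adjusted p = 0.639). All 10 microglia markers looked for were among the tested genes, with medians of 3.17, 2.94 and 2.89 against 2.70 and 3.21. Of these markers, 3 were higher and 7 lower in the libraries labelled knockout. Control replicate 2 was above control replicate 1 for 9 of them (90.0%, against 48.0% of all tested genes), with a median gap of 0.24.

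A ribosome pairs a small subunit, which reads the mRNA, with a large subunit, which joins amino acids. Each subunit is a body of ribosomal RNA that carries a set of ribosomal proteins, nearly all needed in a fixed proportion. The mRNAs of these proteins begin with a terminal oligopyrimidine tract, through which the mTOR kinase pathway controls their translation. Mammalian genomes also hold many processed pseudogenes of them, copies of the mRNA that were inserted elsewhere in the genome.

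Sequence shared with such copies was extensive among the ribosomal protein genes. For 83 of the 84 matching symbols, every stretch of 40 bases (the read length) of the annotated coding sequence was looked up in the transcripts of all other genes (GENCODE vM21, GRCm38). Rps4y2 had no coding transcript. The median gene shared 86.2% of its stretches with at least 1 other gene, against 0.0% for the 19300 listed protein-coding genes. At least 50% was shared by 81.9% of the ribosomal protein genes and by 7.3% of the listed protein-coding genes. Nearly all of the other genes holding the stretches were pseudogenes: 137 of 140 for Rpl7a, 99 of 102 for Rpl29, 94 of 95 for Rpl21 and 83 of 83 for Rps2.

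The following stretches are shown because they span that range, from sequence held by many pseudogenes to sequence held by no other gene. They are coding sequence, 5′ to 3′, numbered from the first coding base, and have no capitals because no single base is compared. The Rps6 stretch runs from base 471 to 510 and recurs in 14 pseudogenes. The Rpl36 stretch runs from base 11 to 50 and recurs in 8, and the Rpl11 stretch from base 228 to 267 recurs in 6. The stretch of Rps9, from base 1 to 40, was found in no other gene.

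Rps6: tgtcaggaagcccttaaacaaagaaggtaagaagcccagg

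Rpl36: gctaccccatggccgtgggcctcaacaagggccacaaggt

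Rpl11: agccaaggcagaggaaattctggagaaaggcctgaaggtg

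Rps9: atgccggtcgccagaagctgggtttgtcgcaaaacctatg

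Many ribosomal protein genes carried little or no signal in this table. Genes with no reads take a fixed pattern, or a close variant of it, across the 5 libraries in these values. This is here called the 0-read value, and it was recognised from the values themselves. Of the 80 genes, 12 lay at it in all 5 libraries and 10 in 4, together 27.5%. Over all 16423 genes not at 0 throughout, the share was 43.1%. The share was 35.4% in the large subunit (17 of 48) and 15.6% in the small subunit (5 of 32). These 22 genes were not tested.

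The 22 untested genes covered parts of both subunits. At the 0-read value in all 5 libraries were Rpl13, Rpl15, Rpl17, Rpl21, Rpl22l1, Rpl26, Rpl27, Rpl30, Rpl36a and Rpl37a of the large subunit, Rps27a, which is made as a fusion with ubiquitin, and Rpsa, which is also known as the laminin receptor. At it in 4 libraries were Rpl23a, Rpl24, Rpl27a, Rpl34, Rpl35a, Rpl38, Rpl39l, Rps13, Rps28 and Rps29. The 1 library above it was a knockout library for Rpl23a, Rpl34, Rpl35a, Rpl38, Rpl39l, Rps13 and Rps29 and a control library for Rpl24, Rpl27a and Rps28. The values of Rpsa ran only from -0.0126 to -0.0210, and those of Rpl13 from -0.0368 to -0.0422.

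Shared sequence and missing signal went together. Among the 22 genes whose coding stretches were all shared with another gene, 15 (68.2%) were listed at 0 or lay at the 0-read value in at least 4 libraries. It was 9 of 46 (19.6%) among genes sharing from 50% to under 100% and 2 of 15 (13.3%) among genes sharing less. The pair in the last class were Rpl10l and Rpl39l, paralogs that are known mainly from the testis. Rps9, of which 46.4% was shared, stood above 0 in every library. Exceptions in the other direction were Rps6, Rpl5 and Rps16, 3 of the 22 wholly shared genes, which were not recognised at the 0-read value in any library. The read counter is not given in the sources used here, and the part of shared sequence in these values was not tested. For members with much shared sequence, reads of the gene and of its copies may have been divided, so their values are uncertain.

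**Figure D1:**
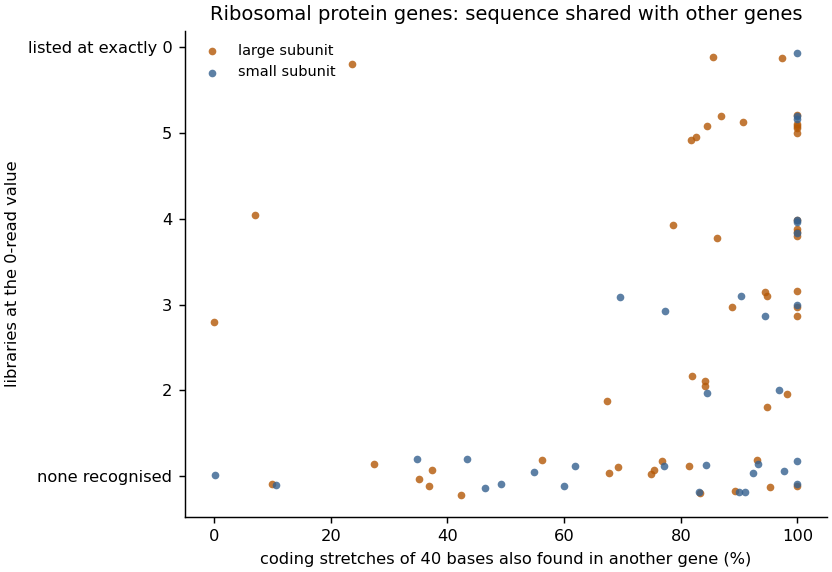
Each point is 1 ribosomal protein gene. The x axis gives the share of its 40-base coding stretches that also occur in another gene (%), the y axis the number of libraries in which it lay at the 0-read value, with genes listed at exactly 0 on top (points are spread vertically within a row). Of the 22 wholly shared genes, 15 lie in the top 3 rows, against 2 of 15 genes with under 50% shared.

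Across the 58 tested genes, the ribosomal protein mRNAs were low in 1 control library and high in the other. The members' median was -0.12 in control replicate 1 and 0.75 in control replicate 2. In the libraries labelled knockout it was 0.82, 0.50 and 0.75, so control replicate 2 stood level with them. The medians of all 9337 tested genes were 0.25, 0.21, 0.18, -0.16 and 0.09. Relative to those, the members stood higher by 0.57, 0.29 and 0.57 in the libraries labelled knockout, by 0.04 in control replicate 1 and by 0.66 in control replicate 2.

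**Figure D2:**
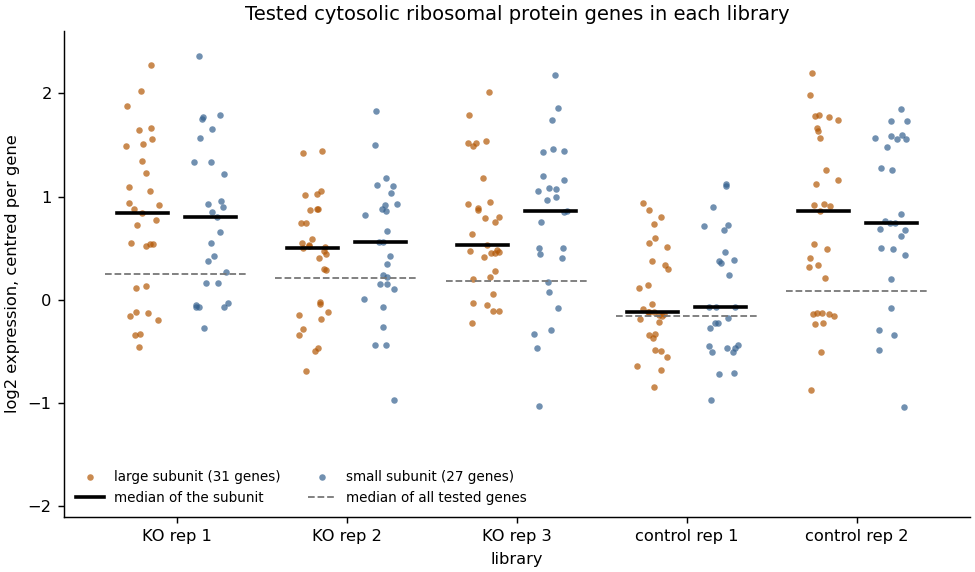
Each point is 1 tested ribosomal protein gene in 1 library (31 large and 27 small subunit genes). The y axis is log2 expression centred per gene, black bars are subunit medians and dashed grey lines the medians of all 9337 tested genes. Both subunits lie lowest in control replicate 1 (medians -0.12 and -0.07), while control replicate 2 (0.86 and 0.74) lies among the libraries labelled knockout.

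Gene by gene, control replicate 2 was above control replicate 1 in 42 of the 58 tested members (72.4%), with a median gap of 0.83, against 48.0% of all tested genes with a median gap of -0.01. Control replicate 1 was the lowest library for 46.6% of the members (23.9% of all tested genes) and control replicate 2 the highest for 18 of the 58 (18.1% of all tested genes). These shares include libraries at the 0-read value, where control replicate 2 is always the lower of the pair. For 37 tested members no library was recognised at the 0-read value, and control replicate 2 was above control replicate 1 in 34 of them (91.9%), with a median gap of 1.14. Over the 5787 tested genes of that kind the share was 52.5%, with a median gap of 0.07. A gene at the 0-read value in control replicate 1 alone cannot be recognised and stays among these genes. Control replicate 1 was the lowest of the 5 libraries for 26 of the 37 (70.3%, against 33.8% of all such genes). Control replicate 2 was the highest for 15 (40.5%, against 19.6%). The 3 exceptions, named after their values were seen, were Rpl5, Rpl31 and Rps25, for which control replicate 1 was above control replicate 2. Rpl31, a large subunit protein near the exit of the peptide tunnel, stood at 0.13, 0.87, 0.87, 0.94 and 0.32 and was the 1 gene of the 37 with its highest value in control replicate 1.

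Against that spread between controls, the comparison of the groups gave no member past the threshold. With limma, 0 of 58 members had a Benjamini-Hochberg adjusted p under 0.05, and so did 0 of all 9337 tested genes in either direction (0%). The smallest adjusted p of a member was 0.616. At an unadjusted p under 0.05 there were 3 members higher in the libraries labelled knockout (Rpl10a, Rpl18 and Rps4y2) and 1 lower (Rps24). Among all tested genes 5.52% were higher and 2.07% lower by that rule. The other limma fits that were tried also passed 0 members.

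By direction alone, 40 of the 58 members (69.0%) had a higher mean in the libraries labelled knockout, with a median log2 difference of 0.29. Over all tested genes 59.9% were higher, with a median of 0.13. Scaling changed that split: 30 of the 58 were higher with each library centred on its median and 32 with quantile normalization, with member medians of 0.04 and 0.16. These scalings moved the median of all tested genes from 0.13 to -0.12 and -0.01. The sign turned on control replicate 1. Without control replicate 1 the members' median was -0.24 with 22 of 58 higher, and without control replicate 2 it was 0.73 with 49 of 58 higher. In RNA from sorted cell pools, a lower share of cells that express a gene and less of its RNA per cell cannot be told apart.

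**Figure D3:**
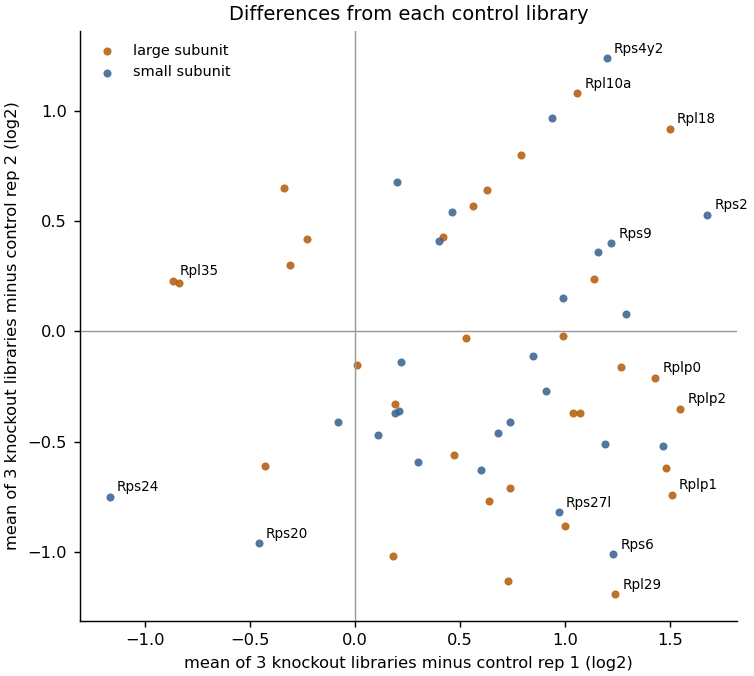
Each point is 1 tested ribosomal protein gene. The x axis is the mean of the 3 libraries labelled knockout minus control replicate 1, the y axis the same mean minus control replicate 2 (both log2), and grey lines mark 0. The mean lies above control replicate 1 for 49 of 58 genes and above control replicate 2 for 22 of 58, so many points lie at the lower right, Rps6 and the stalk genes Rplp0, Rplp1 and Rplp2 among them.

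The medians of large and small subunit genes lay close to each other beside the spread between the controls. The median log2 difference was 0.25 for the 31 large subunit genes (21 higher) and 0.32 for the 27 small subunit genes (19 higher), a gap of -0.07. In single libraries the large subunit median minus the small one was 0.04, -0.06 and -0.33 in those labelled knockout and -0.05 and 0.12 in the controls. Without control replicate 1 the medians were -0.16 and -0.36 and the gap turned to 0.20. Without control replicate 2 they were 0.73 and 0.74. Among genes not recognised at the 0-read value in any library, the gap was 0.18, and without the paralog genes it was -0.16.

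The 3 stalk genes were low in control replicate 1 and high in the other 4 libraries. Rplp0, Rplp1 and Rplp2 encode the acidic stalk of the large subunit, where elongation factors dock. Rplp0 (chromosome 5 from 115559467 to 115563727, GRCm38) stood at 1.88, 1.42 and 2.01 against 0.34 and 1.98. Rplp1 stood at 1.05, 0.55 and 0.89 against -0.68 and 1.57, and Rplp2 at 1.64, 1.05 and 1.54 against -0.14 and 1.77. In each of the 3 genes control replicate 1 was the lowest library by over 1 log2 unit, and control replicate 2 was at or near the top.

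The means of Rplp0 were 1.77 ± 0.31 (SD, n = 3) and 1.16 ± 1.16 (SD, n = 2). Its log2 difference was 0.61 (SE 0.52, 95% interval -0.55 to 1.77, limma adjusted p = 0.796, Benjamini-Hochberg). The differences of Rplp1 and Rplp2 were 0.38 and 0.60, with adjusted p of 0.896 and 0.807 in the same limma fit. Without control replicate 1 the 3 differences turned to -0.21, -0.74 and -0.35. Without control replicate 2 they were 1.43, 1.51 and 1.55.

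Among the core proteins of the large subunit, Rpl10a and Rpl18 had the highest log2 differences. Rpl10a lies at the L1 stalk, where deacylated tRNA leaves the ribosome (chromosome 17 from 28328471 to 28331033, GRCm38). It stood at 0.88, 0.88 and 0.79 against -0.21 and -0.23, with the controls both at the 0-read value. The groups did not overlap, and the log2 difference was 1.07 (SE 0.37, 95% interval 0.23 to 1.90, limma adjusted p = 0.616, Benjamini-Hochberg). Its adjusted p ranged from 0.0621 to 0.892 over the alternative fits.

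Rpl18 stood at 2.02, 0.74 and 0.64 against -0.37 and 0.21. The groups did not overlap, the first knockout library stood apart from the other two, and the log2 difference was 1.21 (SE 0.50, 95% interval 0.09 to 2.34, limma adjusted p = 0.639). Without knockout replicate 1 it was 0.77. Rpl39, a very short protein that lines the peptide exit tunnel, stood at 0.54, 0.53 and 0.47 against 0-read values of -0.12 and -0.13. Its log2 difference was 0.64 (SE 0.37, limma adjusted p = 0.750), and 0.39 with libraries centred on their median.

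Groups did not overlap for 8 members that were higher in the libraries labelled knockout, against 17.3% of all tested genes, and for 2 that were lower, against 7.11%. As shares of the members these are 13.8% and 3.4%. The 8 were Rpl10a, Rpl18, Rpl39, Rpl3l, Rps4x, Rps4y2, Rps9 and Rps12. In Rpl10a, Rpl39, Rpl3l, Rps4x, Rps4y2 and Rps12 both controls lay at the 0-read value. These genes passed the filter only through libraries labelled knockout, so their lack of overlap is no evidence of a difference. Signal in any 2 libraries met the filter, which the 3 libraries labelled knockout do more easily than the 2 controls. The shares of all tested genes carry this too. In Rpl3l, Rps4x and Rps12 knockout replicate 1 lay at the 0-read value together with both controls, so its place above them is only the fixed offset between libraries. Rps4x, the small subunit protein encoded on the X chromosome, stood at -0.27, 0.82 and 1.46 against -0.27 and -0.29, and Rps12 at -0.07, 0.56 and 0.50 against -0.07 and -0.08. Their log2 differences were 0.95 and 0.41, with limma adjusted p of 0.725 and 0.807 (Benjamini-Hochberg). The difference of Rps4x was 0.56 without knockout replicate 3, and that of Rps12 was 0.16 with libraries centred on their median.

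The lowest differences of the large subunit were those of Rpl3, Rpl36 and Rpl35. Rpl3, which reaches towards the peptidyl transferase centre, stood at -0.33, 0.30 and 0.93 against 0.73 and 0.91 (log2 difference -0.52, SE 0.46). Leaving out knockout replicate 1 gave -0.20, and leaving out knockout replicate 3 gave -0.83. Rpl36 was above the 0-read value only in knockout replicate 3 (0.20) and control replicate 2 (0.86), and Rpl35 only in knockout replicate 2 (0.44) and control replicate 1 (0.87). Their differences were -0.42 and -0.32, which turned to 0.18 for Rpl36 without control replicate 2 and to 0.23 for Rpl35 without control replicate 1. The limma adjusted p of the 3 genes lay at 0.807, 0.824 and 0.882 (Benjamini-Hochberg).

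Rpl5 and Rpl11 form, with the ribosomal RNA of the large subunit called 5S, a particle that can bind the p53 inhibitor Mdm2. Rpl11 was listed at 0 in every library. Rpl5 stood at 0.11, -0.69 and -0.11 against 0.11 and -0.87, and its groups overlapped. Its difference of 0.15 turned to -0.02 without knockout replicate 1, to -0.34 without control replicate 2, to -0.10 with libraries centred on their median and to -0.08 with quantile normalization.

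In the small subunit, Rps9 was the member above both controls with signal in all 5 libraries. Rps9 takes part in early assembly of the subunit and in decoding fidelity (chromosome 7 from 3703993 to 3706897, GRCm38). It stood at 2.36, 1.83 and 2.18 against 0.90 and 1.73. Group means were 2.12 ± 0.27 (SD, n = 3) and 1.31 ± 0.58 (SD, n = 2), and the gap to control replicate 2 was small in knockout replicate 2. The log2 difference was 0.81 (SE 0.42, 95% interval -0.14 to 1.76, limma adjusted p = 0.706, Benjamini-Hochberg). Leaving out control replicate 1 gave 0.40, and leaving out control replicate 2 gave 1.22.

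Rps2, which lies near the mRNA entry of the small subunit, stood at 0.27, 1.18 and 1.43 against -0.72 and 0.43. Knockout replicate 1 lay between the controls. The log2 difference was 1.11 (SE 0.51, 95% interval -0.03 to 2.24, limma adjusted p = 0.656). Leaving out control replicate 1 gave 0.53, and leaving out control replicate 2 gave 1.68.

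Rps24 and Rps20 were the only tested members whose values were lower in all 3 libraries labelled knockout than in both controls. Rps24, needed for processing of the small subunit RNA and mutated in some patients with Diamond-Blackfan anaemia, stood at 0.38, -0.26 and -0.29 against 1.12 and 0.69, with knockout replicates 2 and 3 at the 0-read value. Its log2 difference was -0.96 (SE 0.41, 95% interval -1.88 to -0.04, limma adjusted p = 0.639, Benjamini-Hochberg). Rps20 stood at 0.85, 0.10 and 0.97 against 1.10 and 1.59, a difference of -0.71 (SE 0.43, adjusted p = 0.762 in the same limma fit). Leaving out knockout replicate 2 gave -0.44, and leaving out control replicate 2 gave -0.46. Neither passed the threshold.

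Rps6, the small subunit protein phosphorylated downstream of mTOR, followed the controls' spread. It lies on chromosome 4 from 86854660 to 86857412 (GRCm38) and had values of 0.55, 0.86 and 0.75 against -0.51 and 1.73. The controls thus lay on either side of all 3 libraries labelled knockout. The log2 difference was 0.11 (SE 0.60, 95% interval -1.22 to 1.44, limma adjusted p = 0.973), and it turned to -1.01 without control replicate 1, to -0.14 with libraries centred on their median and to -0.03 with quantile normalization.

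Rps19, the gene most often mutated in Diamond-Blackfan anaemia, stood at 0.66, 0.24 and 0.17 against 0.24 and 0.83. Its groups overlapped, and the difference of -0.18 (SE 0.41) turned to 0.11 without control replicate 2. The limma adjusted p was 0.933.

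Some ribosomal protein genes have a paralog that makes a closely related protein, often with a narrower tissue range. The first 60 coding bases of 3 such pairs are printed to show how far parent and paralog differ: capitals mark the bases that differ within a pair, 18 between Rps27 and Rps27l, 4 between Rpl39 and Rpl39l and 13 between Rpl3 and Rpl3l. No stretch of 40 coding bases was common to parent and paralog in any of the 3 pairs. Only exact matches were compared, and how reads with mismatches or several alignments were assigned was not tested.

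Rps27: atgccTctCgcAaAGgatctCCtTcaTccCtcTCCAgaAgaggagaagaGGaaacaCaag

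Rps27l: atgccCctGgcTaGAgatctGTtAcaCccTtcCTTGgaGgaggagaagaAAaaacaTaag

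Rpl39: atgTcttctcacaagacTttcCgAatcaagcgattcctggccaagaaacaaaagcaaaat

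Rpl39l: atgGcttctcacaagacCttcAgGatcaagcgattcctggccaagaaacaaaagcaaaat

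Rpl3: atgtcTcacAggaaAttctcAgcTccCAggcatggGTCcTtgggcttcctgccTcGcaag

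Rpl3l: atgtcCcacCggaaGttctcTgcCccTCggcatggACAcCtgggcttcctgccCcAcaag

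Rps27 and Rps27l had different orders of libraries. Rps27 stood at 0.80, 0.35 and -0.33 against 0.36 and 0.68, and its difference of -0.24 (SE 0.44) turned to 0.06 without knockout replicate 3. Rps27l, a p53 target in other settings, stood at 0.93, 0.92 and 0.40 against -0.22 and 1.57, so that both controls lay outside the range of the libraries labelled knockout. Its difference of 0.08 (SE 0.54) turned to -0.82 without control replicate 1, to -0.01 without knockout replicate 1 or 2, to -0.18 with libraries centred on their median and to -0.08 with quantile normalization. The limma adjusted p was 0.905 for Rps27 and 0.973 for Rps27l (Benjamini-Hochberg).

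Rpl3l, known as the muscle form of Rpl3, shared none of its coding stretches with another gene. It stood at -0.12, 0.59 and 1.52 against -0.12 and -0.14, so signal was seen in knockout replicates 2 and 3 only. The log2 difference was 0.79 (SE 0.50, limma adjusted p = 0.763), and 0.36 without knockout replicate 3. Rpl39l was above the 0-read value in knockout replicate 2 alone, and Rpl22l1 in no library.

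Rpl22, whose protein also binds other RNAs, had a gap of 2.10 between the controls. It stood at 1.66, -0.28 and 0.53 against -0.84 and 1.26. Its difference of 0.43 (SE 0.70) turned to -0.08 without knockout replicate 1 and to -0.62 without control replicate 1. Rpl10, which completes the large subunit late in assembly, was above the 0-read value in knockout replicates 1 and 3 only (0.94 and 0.45), with a difference of 0.57 (SE 0.43) that was 0.30 without knockout replicate 1. The limma adjusted p was 0.897 for Rpl22 and 0.779 for Rpl10 (Benjamini-Hochberg).

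Rpl7 stood at 0.77, 1.01 and -0.03 against -0.55 and 0.34, a difference of 0.69 (SE 0.47). Rpl7l1, a paralog of Rpl7 tied to ribosome assembly, stood at 0.84, 0.52 and 0.95 against -0.50 and 0.93. Its difference of 0.55 (SE 0.48) turned to -0.16 without control replicate 1, whereas that of Rpl7 was 0.24 there. Without control replicate 2 they were 1.27 and 1.14. The limma adjusted p was 0.775 for Rpl7 and 0.806 for Rpl7l1.

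Rps4y2 had the highest log2 difference of all members, 1.22 (SE 0.43, 95% interval 0.25 to 2.18, limma adjusted p = 0.616, Benjamini-Hochberg). It stood at 0.16, 0.88 and 1.20, and both controls lay at the 0-read value (-0.45 and -0.49). This symbol was taken to be Rps4l of the annotation, a transcribed processed pseudogene on chromosome 6 from 148354656 to 148355598 (GRCm38). Without a coding transcript, it was not looked up itself and entered the search for shared stretches only among the other genes. Whether its reads were kept apart from those of Rps4x was not tested.

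Genes that work with the ribosome were described from fixed lists, and none of their members passed the limma threshold. Of 18 translation factors with terminal oligopyrimidine mRNAs, 17 were tested and 12 were higher in the libraries labelled knockout, with a median log2 difference of 0.20. Their library medians followed those of the ribosomal proteins: 1.08, 0.89 and 0.54 in the libraries labelled knockout, 0.00 in control replicate 1 and 1.02 in control replicate 2. Eif3h, a subunit of the initiation factor eIF3, stood at 1.44, 0.92 and 0.67 against -1.47 and 0.94, a difference of 1.27 (SE 0.64). Nap1l1, a histone chaperone, stood at 0.52, 0.51 and -0.11 against -0.81 and -0.13, a difference of 0.78 (SE 0.43) with groups that did not overlap. The limma adjusted p was 0.697 for Eif3h and 0.725 for Nap1l1 (Benjamini-Hochberg). Of the 17 factors, 3 (17.6%) were higher without overlap, against 17.3% of all tested genes, and 1 (5.9%) was lower, against 7.11%.

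Ribosome biogenesis factors build the subunits, mostly in the nucleolus. Of 33 tested factors 21 (63.6%) were higher, against 59.9% of all tested genes, and 4 were higher at an unadjusted p under 0.05, against 5.52% of all tested genes. Their median difference was 0.22, and the library medians were 0.54, 0.35, 0.46, -0.30 and 0.35. Gene by gene, control replicate 1 was the lowest library for 13 of the 33 (39.4%), and control replicate 2 was above it for 17 (51.5%), against 48.0% of all tested genes. Nop58, a core protein of the box C/D particles that methylate ribosomal RNA, stood at 1.62, 0.70 and 1.01 against -0.62 and -0.12, a difference of 1.48 (SE 0.43). Nop2, a methyltransferase of the large subunit RNA, stood at 1.00, 0.54 and 0.14 against 0-read values of -0.73 and -0.80, a difference of 1.32 (SE 0.41). The limma adjusted p was 0.605 for both, and their groups did not overlap. Nop2 passed the filter only through libraries labelled knockout, so its lack of overlap is no evidence of a difference. Of the 33 factors, 6 (18.2%) were higher without overlap, against 17.3% of all tested genes, and 1 (3.0%) was lower, against 7.11%.

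Of 8 tested genes of RNA polymerase I, which transcribes ribosomal RNA, 4 were higher, with a median of 0.12. Taf1d, part of its promoter factor, stood at 0.22, -0.44 and 0.32 against 0-read values of -0.96 and -1.04. Rrn3, the initiation factor of this polymerase, stood above the 0-read value in knockout replicates 1 and 2 only (0.22 and 0.94), a difference of 0.66 (SE 0.47, limma adjusted p = 0.779). Of 17 tested regulators of ribosomal protein synthesis 9 were higher, with a median of 0.06. Mtor, the kinase itself, stood at 0.64, 0.11 and 0.51 against 0-read values of -0.83 and -0.89, a difference of 1.28 (SE 0.39, limma adjusted p = 0.605). Taf1d, Rrn3 and Mtor passed the filter only through libraries labelled knockout, so their higher values there are no evidence of a difference. Rheb, the activator of mTOR, differed by -0.99 (SE 0.51, limma adjusted p = 0.699), with control replicate 1 at 1.75 and the other 4 libraries between -0.25 and 0.23. For regulators, control replicate 1 had the highest median (0.61).

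**Figure D4:**
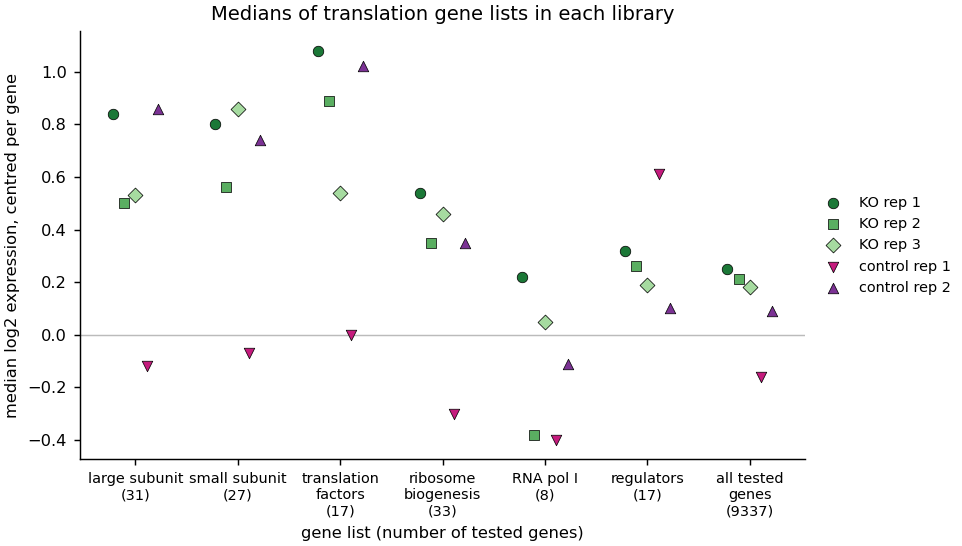
Each symbol is the median log2 expression (centred per gene) of 1 gene list in 1 library, and the number of tested genes stands under each list. Control replicate 1 has the lowest median for every list shown except regulators, including all tested genes (-0.16). For regulators it has the highest (0.61). For RNA polymerase I its median (-0.40) is close to that of knockout replicate 2 (-0.38). Gene by gene, control replicate 1 was the lowest library for 1 of those 8 genes (12.5%, against 23.9% of all tested genes).

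Of 5 ribosomal proteins that the naming rule leaves out, 4 were listed and 2 were tested. Gnb2l1, which encodes the scaffold protein RACK1 on the head of the small subunit, stood at 2.33, 1.78 and 1.75 against 0.91 and 1.83, low in control replicate 1 like most members. Rpl36al stood at 0.26, -0.37 and -0.39 against 0.98 and -0.40. Fau, a fusion of a ubiquitin-like part with a ribosomal protein, lay at the 0-read value in at least 4 libraries.

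Markers of other blood cells were also looked at, and none passed the limma threshold (smallest adjusted p 0.518 for neutrophil and 0.634 for monocyte markers, Benjamini-Hochberg). Of 10 neutrophil markers 7 were tested and 6 were higher in the libraries labelled knockout, with library medians of 1.02, 0.88 and 1.50 against -0.15 and -0.11, and Elane was listed at 0. Of 9 listed monocyte markers 5 were tested and all 5 were higher, with medians of 0.98, -0.10 and 0.47 against -0.14 and -0.13, and Ly6c2 and Cd177 were listed at 0. The monocyte median of knockout replicate 2 was thus level with those of the controls. Over all tested genes 59.9% were higher. Control replicate 2 was the lowest library for 5 of the 7 neutrophil and 3 of the 5 monocyte markers. Its median gap to control replicate 1 was -0.02 and -0.01. A marker at the 0-read value in both controls enters only through libraries labelled knockout, so these counts are no evidence of a difference. Of the red blood cell markers 1 was tested and 5 were listed at 0, and 3 of 10 neuron markers and 1 of 8 markers of the oligodendrocyte lineage were tested. The part of such cells in the values of the ribosomal protein genes was not tested.

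Among the tested genes, control replicate 1 lay at the 0-read value for 29.4% and control replicate 2 for 20.8%, against 14.9% to 15.2% in the libraries labelled knockout. For the tested ribosomal protein genes the shares were 29.3% and 20.7% in the controls and 17.2%, 17.2% and 8.6% in the libraries labelled knockout. These shares are lower limits, since a gene at the 0-read value in a single library cannot be recognised. The part of depth in the low values of control replicate 1 was not tested.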

How the data were processed

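Mouse forebrain CD11b-positive cells were profiled by polyA RNA sequencing from 200 ng of RNA with an integrity number over 8, in a kit that does not mark strand. Per the labels, 286 M reads of 40 bases were obtained in all, and 274 M (95%) mapped to the GRCm38/mm10 assembly. The tools listed in the submitters' processing notes are TopHat2 2.0.13 and, without a role or version, DESeq2. Neither the counter nor the gene models are named in the sources used here. The deposited values were read as log2, inferred from their range and shape, centred per gene on a value outside the table, and resemble a regularized log, which shrinks differences of genes with few reads.

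The sample titles gave each library's group and replicate number. The value taken at 0 reads was recognised from its fixed pattern across libraries (in at least 3 libraries within 2% of its span, in pairs within 20% of the expected span). A further 128 genes were added as variants, with 4 or 5 values within 0.03 of each other in the order of the pattern. Rows at exactly 0 throughout (6974), genes at the 0-read value in 4 or 5 libraries (7086) and 27 names that a spreadsheet turned into numbers were left out, which left 9337 tested genes. These recognition settings were chosen after values had been seen. The groups were compared with limma 3.58.1 (~ group, eBayes without trend or robust estimation) in R 4.3.3, adjusted by Benjamini-Hochberg over all tested genes with a threshold of 0.05. SE and 95% intervals come from limma. The script was tested on simulated data. Tables were made with pandas 2.3.3 and numpy 2.4.6 under Python 3.11.15, and figures with matplotlib 3.10.9. Printed sequences and shared stretches come from GENCODE vM21 transcripts, with coordinates counted from 1.

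The members and gene lists were chosen with earlier results of these data known, so no test over a list was made. Members named with values are those whose groups do not overlap (at most 10 per direction), the 3 highest and 3 lowest differences of each subunit, the stalk genes, Rpsa, Rps6, paralogs with their parents, Rpl5, Rpl11 and Rps19, and of each other list the 2 genes with the smallest p. Alternatives changed the filter, the scaling, the spread model, the replicate block, the members or the summary, or left out 1 library. Some single-gene results are not reported here.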

Additional observations from a re-analysis of the deposited data

How the results depend on the processing

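No member passed the limma threshold in any fit tried. With SEs from 0.37 to 0.70 among the named members, this does not show that they did not differ, since differences of the size seen here are hard to detect with 3 and 2 libraries. With only rows at 0 throughout left out (80 members, 16423 genes), the smallest adjusted p of a member was 0.0621 and 1 gene, not a member, passed. Leaving out 1 library at a time, the median difference ran from -0.24 to 0.73 for all members, from -0.16 to 0.73 for the large subunit and from -0.36 to 0.74 for the small subunit. The large minus small median, -0.07 in the main fit, then ran from -0.01 to 0.20. It was 0.18 where genes with any library recognised at the 0-read value were left out. It was -0.16 without the paralog genes, -0.12 with quantile normalization and -0.11 with only rows at 0 throughout left out. Alternatives other than leaving out a library left the members' median between 0.04 and 0.32.

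Of 276 alternative values for named members, 23 changed sign. Part of the 276 could not do so, because another filter or spread model leaves the difference of a gene as it was. Values with the replicate block repeat another setting, as described below, so the sign change of Rps27 to 0.06 was counted under both. The share of sign changes is therefore no measure of how stable the differences are. With 1 library left out, differences ran from -0.21 to 1.43 for Rplp0, -0.74 to 1.51 for Rplp1, -0.35 to 1.55 for Rplp2, -0.62 to 1.48 for Rpl22, -0.87 to 0.23 for Rpl35, -1.02 to 0.18 for Rpl36, -0.34 to 0.65 for Rpl5, -0.16 to 1.27 for Rpl7l1, -0.47 to 0.11 for Rps19, -0.51 to 0.06 for Rps27, -0.82 to 0.97 for Rps27l and -1.01 to 1.23 for Rps6. With libraries centred on their median, Rps6 was -0.14, Rps27l -0.18 and Rpl5 -0.10. With quantile normalization they were -0.03, -0.08 and -0.08. The cause was not tested. Where 1 control was left, its spread was assumed to be like that of the other group.

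Replicate numbers 1 and 2 occur in both groups, but the labels tie them to no shared litter or day. Deviations from the group means correlated across genes by 0.00 for number 1 and -0.07 for number 2. With the replicate block, 0 members passed, the members' median was 0.26 and Rps27 turned to 0.06. No control shares the number of knockout replicate 3, so these differences are the same as those without that library. They are no separate effect of the replicate number. The unknown depth and 2 controls limit every difference given.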
